A study of Homo sapiens with 9 samples.

Results

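Transcripts of 9 genes that build, protect or empty lipid droplets were followed in A498, a human cell line established from clear cell renal cell carcinoma (ccRCC), in which ARNT or BMAL1 had been depleted. The genes were chosen by name for their part in lipid storage and use, and they are 9 of the 27673 genes of the table: PLIN2, PLIN3, HILPDA, G0S2, PNPLA2, ABHD5, CPT1A, DGAT1 and DGAT2. All of them passed the filter on low counts and were among the 15551 genes tested. The cells, wild type by their label, were infected with lentivirus that carried a pLKO.1 vector with a control short hairpin RNA (shControl), a hairpin against BMAL1 (shBMAL1) or a hairpin against ARNT (shARNT), and all 3 groups were selected and kept in puromycin. Each group had 3 biological replicates, which gave 9 libraries. The labels do not say which of the BMAL1 hairpins in the study's methods was used here, and effects of the hairpin and of its target cannot be told apart. ARNT pairs with the hypoxia-inducible factors (HIFs) on DNA, while BMAL1 pairs with CLOCK to drive the circadian clock. The study asked how far each of them contributes to the transcripts driven by HIF2α, which ccRCC cells accumulate.

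Lipid droplets are stores of triglyceride and sterol ester under a single layer of phospholipid, and the clear cytoplasm that names ccRCC comes from such stores together with glycogen. Triglyceride is completed by the acyltransferases DGAT1 and DGAT2, the droplet surface is coated by perilipins such as PLIN2 and PLIN3, and the first fatty acid is released by the lipase PNPLA2 (ATGL). PNPLA2 is activated by ABHD5 (CGI-58) and inhibited by G0S2 and HILPDA, and CPT1A, at the outer mitochondrial membrane, commits released fatty acids to oxidation.

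The upstream sequences of 3 of the genes are shown because they moved furthest in shARNT among the members with a sequence at hand: PLIN2 and G0S2 fell and CPT1A rose. Each line gives the 250 bases before a transcription start in RefSeq (GRCh38.p14), 5′ to 3′ on the strand of the gene. Capitals mark the core of the hypoxia response element (ACGTG or GCGTG, either strand) and the E-box CACGTG, the letters associated with the clock proteins.
PLIN2, chr9:19127493-19127742, minus strand: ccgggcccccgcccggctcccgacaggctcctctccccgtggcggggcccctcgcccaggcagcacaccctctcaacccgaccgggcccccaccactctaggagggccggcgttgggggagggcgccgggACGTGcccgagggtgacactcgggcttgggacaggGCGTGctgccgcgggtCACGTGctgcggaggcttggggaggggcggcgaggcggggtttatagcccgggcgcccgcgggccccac
G0S2, chr1:209675162-209675411, plus strand: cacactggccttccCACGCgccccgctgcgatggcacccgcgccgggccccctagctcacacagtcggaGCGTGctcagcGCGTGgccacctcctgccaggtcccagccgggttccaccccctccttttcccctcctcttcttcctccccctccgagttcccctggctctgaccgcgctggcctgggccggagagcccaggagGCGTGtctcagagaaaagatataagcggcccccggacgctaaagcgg
CPT1A, chr11:68844278-68844527, minus strand: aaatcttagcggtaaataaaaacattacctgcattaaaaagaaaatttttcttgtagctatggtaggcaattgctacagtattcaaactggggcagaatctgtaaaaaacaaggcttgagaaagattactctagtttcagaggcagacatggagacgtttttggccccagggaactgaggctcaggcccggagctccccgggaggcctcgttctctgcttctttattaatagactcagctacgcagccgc
The PLIN2 window held 4 matches of the HRE core, which began 120, 85, 69 and 68 bases before the start, and 1 E-box at 69 bases. The last 2 of these core matches lie within the letters of that E-box, which reads the same on both strands. The G0S2 window held 4 HRE core matches, at 236, 181, 170 and 47 bases, and no E-box. Neither motif was in the CPT1A window, which is that of a single RefSeq start, and whether these cells use this start was not tested. The GC content of the windows was 78.0% (PLIN2), 69.2% (G0S2) and 44.4% (CPT1A), and both motifs are rich in G and C.

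Windows were used for 6 of the 9 genes. None was at hand for HILPDA or DGAT2, and DGAT1 was left out here. PLIN3 had 3 HRE core matches, ABHD5 had 1 matching site, which lay in 2 of its 3 overlapping windows, and PNPLA2 had none. Among 34943 RefSeq windows of the same length, 43.2% held an HRE core and 6.32% an E-box. A match of letters describes the sequence and does not show binding.

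The libraries were close in depth, with totals of 35269857 to 36099083 counts, while the scaling factors (trimmed mean of M values, TMM) ranged over 0.932 to 0.944 (shControl), 0.961 to 0.971 (shBMAL1) and 1.10 to 1.11 (shARNT). Levels below are counts per 1000000 (CPM) of the TMM-scaled library, given as mean ± SD with n = 3. Adjusted p values are from the quasi-likelihood test of edgeR with Benjamini-Hochberg adjustment over all genes tested, and a gene was called when its adjusted p was under 0.1. The labels do not say whether replicates came from separate infections, so these p values measure the spread among these libraries. ARNT was at 18.8% of its control level in shARNT, and BMAL1, listed as ARNTL, was at 30.8% in shBMAL1. Each depletion also moved the other partner: ARNT was at 64.0% of control in shBMAL1 (log2 -0.65, adjusted p = 1.54e-08) and BMAL1 at 146% in shARNT (0.55, adjusted p = 8.27e-06). EPAS1, which encodes HIF2α, had 345 CPM in shControl, 233 in shBMAL1 and 74.3 in shARNT, and HIF1A had 139.7, 421 and 390.2 CPM. Markers of renal epithelium and ccRCC were present, but their levels differed between groups. The renal transcription factor PAX8 had 36 CPM in shControl, 40.7 in shBMAL1 and 100.3 in shARNT. In the same order PAX2 had 9.85, 6.95 and 6.71 CPM, KRT8 had 1099, 1011 and 653, and KRT18 had 566, 472 and 563. NNMT had 103, 188 and 67.8 CPM, and CA9, a HIF target, had 76.5, 30.2 and 1.06. NDUFA4L2, high in ccRCC tumors, was between 0 and 0.484 CPM.

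In shARNT, 7 of the 9 genes were called (edgeR). PLIN2, HILPDA and G0S2 fell most, PLIN3, ABHD5 and PNPLA2 fell less, CPT1A rose, and DGAT1 and DGAT2 were not called. Scaled by library size alone, PNPLA2 turned to a log2 change of 0.02 and ABHD5 lost its call, and the 9 genes split into 4 lower and 3 higher. Among all genes tested 81.8% were called in this contrast, 41.3% lower and 40.5% higher, so the number of genes called is near the background. In shBMAL1, 8 of the 9 were called, with 4 lower (HILPDA, G0S2, PNPLA2 and CPT1A) and 4 higher (PLIN3, ABHD5, DGAT1 and DGAT2), beside 63.3% of all genes, 31.5% lower and 31.9% higher. In the direct contrast of shARNT with shBMAL1, 8 of the 9 were called, with 7 lower in shARNT and CPT1A higher (5 lower and 2 higher with library size alone), beside 81.2% of all genes, 41.1% lower and 40.1% higher. The depletions were both compared with the same shControl libraries, so only the direct contrast tests how they differ.

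The median log2 fold change of the 9 genes was -0.35 for shARNT, -0.03 for shBMAL1 and -0.50 between the depletions, beside -0.01, 0.00 and -0.01 over all genes. When a change had to exceed 1.5-fold, 4 genes were called in shARNT (PLIN2, HILPDA and G0S2 lower, CPT1A higher), HILPDA alone in shBMAL1, and the same 4 as in shARNT in the direct contrast. The matching shares of all genes were 44.8%, 13.6% and 43.9%.

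**Figure D1:**
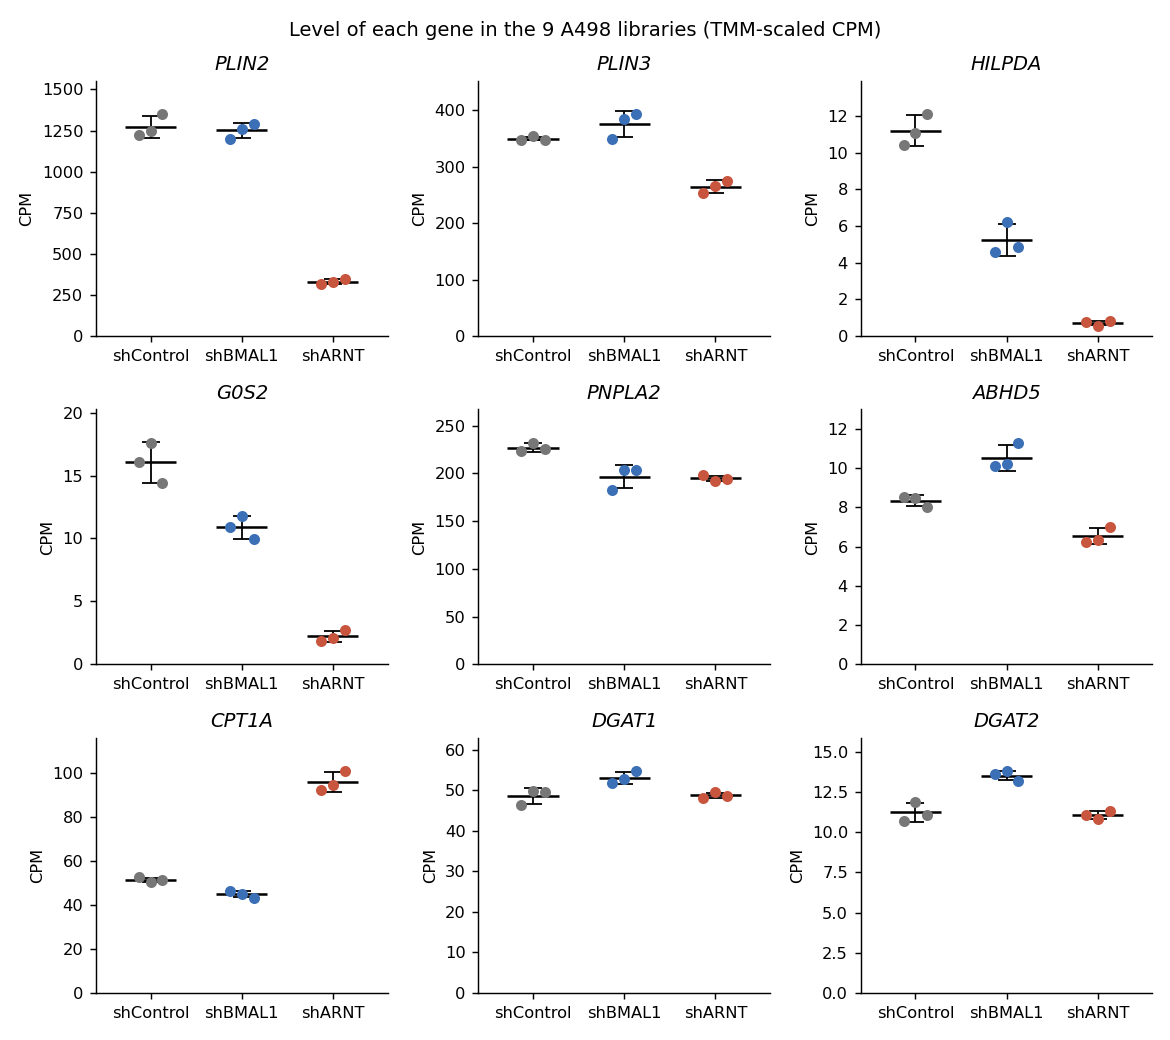
Level of each of the 9 genes in each library, in TMM-scaled CPM on a linear axis that starts at 0. Points are the 3 libraries of a group, horizontal lines the mean and bars the SD. PLIN2, HILPDA and G0S2 sit lowest in shARNT, at 329, 0.707 and 2.24 CPM, and CPT1A sits highest there, at 96.0 CPM.

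PLIN2, the perilipin that coats droplets in most cells outside fat tissue, had 40694, 41132 and 44546 counts in shControl, 41062, 43459 and 43915 in shBMAL1, and 12487, 12937 and 13678 in shARNT. The shARNT libraries lay far below all others, while the counts of shBMAL1 fell within the range of shControl and its CPM (1201 to 1291) overlapped those of shControl (1222 to 1349). Its level was 1273 ± 66.4 CPM in shControl, 1251 ± 46.0 in shBMAL1 and 329 ± 14.8 in shARNT. The log2 fold change in shARNT was -1.95 (SE 0.0439, adjusted p = 5.01e-19), which left 25.8% of the control level. In shBMAL1 it was -0.03 (SE 0.0421, adjusted p = 0.629), with a 95% confidence interval from -0.11 to 0.06, so a fall of the size seen in shARNT lies outside it. The direct contrast gave -1.93 (SE 0.0438, adjusted p = 6e-19). PLIN2 spans 19108373 to 19149288 on the minus strand of chromosome 9 (GRCh37, as for all gene positions here).

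PLIN3, a perilipin that is also found in the cytosol and moves onto new droplets, had 11570, 11652 and 11482 counts in shControl, 11950, 13228 and 13372 in shBMAL1, and 10041, 10526 and 10921 in shARNT. In CPM the shARNT libraries (253 to 275) were below all shControl libraries (348 to 354), and 1 shBMAL1 library, at 349.5, fell among the controls. The log2 fold change in shARNT was -0.40 (SE 0.0437, adjusted p = 5.32e-08). The change of 0.10 in shBMAL1 (SE 0.0435, adjusted p = 0.0496) was not called without shControl replicate 1 or 3, or without shBMAL1 replicate 2 or 3, where adjusted p was 0.105, 0.112, 0.159 and 0.21. PLIN3 lies on chromosome 19 from 4838353 to 4867706, minus strand.

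The other perilipins were scarce. PLIN1, the coat protein of adipocyte droplets, had 13, 22 and 13 counts in shControl, 38, 18 and 23 in shBMAL1, and 58, 52 and 59 in shARNT. The gene shares 1664 bases with PEX11A on the same strand, and whether reads from PEX11A were counted for PLIN1 was not tested. The rise of PLIN1 in shARNT was 1.55 on the log2 scale (SE 0.323, adjusted p = 2.16e-04). Its change of 0.67 in shBMAL1 had an adjusted p of 0.113. It was called without shControl replicate 2 (0.97, adjusted p = 0.0507) or shBMAL1 replicate 2 (0.88, adjusted p = 0.0503). It was also called with library size alone (0.71, adjusted p = 0.089) or halved counts (0.74, adjusted p = 0.0892). Without shBMAL1 replicate 1, the library with 38 counts, it was 0.31. PLIN4 was not called, with log2 changes of -0.25 in shARNT (95% interval from -0.79 to 0.29) and -0.21 in shBMAL1 (from -0.76 to 0.34). PLIN5, the perilipin of oxidative tissues, had 0 counts in all 9 libraries, which allows up to 3 counts per library, or 0.0755 to 0.0911 CPM (counting error only). Per kilobase of transcript (RPKM, TMM-scaled), PLIN2 stood at 671 in shControl, PLIN3 at 157, PLIN4 at 0.245 and PLIN1 at 0.166, and in shARNT PLIN1 was at 0.488 RPKM against 173 for PLIN2.

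HILPDA, a small hypoxia-inducible droplet protein that inhibits PNPLA2, had 347, 367 and 399 counts in shControl, 156, 214 and 166 in shBMAL1, and 30, 22 and 32 in shARNT. The groups did not overlap, and shBMAL1 lay between the other two. Its level was 11.2 ± 0.83 CPM in shControl, 5.22 ± 0.875 in shBMAL1 and 0.707 ± 0.133 in shARNT. The log2 fold changes were -3.98 in shARNT (SE 0.171, adjusted p = 1.74e-14), which left 6.31% of the control level, and -1.10 in shBMAL1 (SE 0.132, adjusted p = 5.41e-07), which left 46.6%. The direct contrast gave -2.88 (SE 0.181, adjusted p = 9.05e-12). Of the 15551 genes tested, 166 had a lower fold change than HILPDA in shARNT and 724 in shBMAL1. HILPDA has 2 exons on chromosome 7, from 128095903 to 128098472 on the plus strand, and the annotation places 2 long noncoding RNAs over it on the same strand, so reads from these cannot be told apart from its own.

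G0S2, the G0/G1 switch protein that binds and inhibits PNPLA2, had 537, 578 and 475 counts in shControl, 373, 407 and 339 in shBMAL1, and 75, 83 and 108 in shARNT. As for HILPDA, the 3 groups did not overlap and shBMAL1 was intermediate. Its level was 16 ± 1.59 CPM in shControl, 10.9 ± 0.924 in shBMAL1 and 2.24 ± 0.431 in shARNT. The log2 fold changes were -2.84 in shARNT (SE 0.131, adjusted p = 5.44e-14) and -0.56 in shBMAL1 (SE 0.11, adjusted p = 2.3e-04), which left 14.0% and 68.1% of the control level. Between the depletions it differed by -2.28 (SE 0.133, adjusted p = 2.71e-12). G0S2 lies on chromosome 1 from 209848757 to 209849735, plus strand, within an antisense RNA of HSD11B1, and the use of strand in counting was not stated.

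PNPLA2, the lipase itself, had 7410, 7653 and 7443 counts in shControl, 6241, 7025 and 6904 in shBMAL1, and 7852, 7582 and 7699 in shARNT. After scaling, all depleted libraries (183 to 204 CPM) were below all shControl libraries (223 to 232 CPM). The log2 fold change in shARNT was -0.22 (SE 0.0433, adjusted p = 1.13e-04), but 0.02 (adjusted p = 0.728) with library size alone. That scaling moved the median of all genes in shARNT to 0.23, and relative to this median the change of PNPLA2 was -0.21. With TMM scaling the median was already -0.01, so taking it off does not decide between the scalings. In shBMAL1 the change of PNPLA2 was -0.21 (SE 0.0434, adjusted p = 3.96e-04), and -0.16 with library size alone. No difference between the depletions was called, at -0.01 with a 95% interval from -0.10 to 0.08 (adjusted p = 0.783), although library size alone gave 0.18 (adjusted p = 9.38e-04). PNPLA2 lies on chromosome 11 from 818914 to 825573, plus strand.

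ABHD5, the co-activator of PNPLA2, moved in opposite directions. It had 284, 279 and 266 counts in shControl, 346, 351 and 384 in shBMAL1, and 248, 251 and 278 in shARNT. In CPM the 3 groups did not overlap, at 8.35 ± 0.261 in shControl, 10.5 ± 0.657 in shBMAL1 and 6.54 ± 0.407 in shARNT. The log2 fold change was 0.33 in shBMAL1 (SE 0.0983, adjusted p = 0.00652) and -0.35 in shARNT (SE 0.101, adjusted p = 0.00349). With library size alone the fall in shARNT was -0.12 and not called (adjusted p = 0.294). The direct contrast, -0.69 (SE 0.0989, adjusted p = 2.61e-06), was -0.50 under that scaling. ABHD5 lies on chromosome 3 from 43731600 to 43775863, plus strand, and shares 1487 bases with ANO10 on the opposite strand.

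CPT1A, the liver-type carnitine palmitoyltransferase, was the only one of the 9 called higher in shARNT with TMM scaling, while with library size alone DGAT1 and DGAT2 were called higher too. It had 1751, 1665 and 1696 counts in shControl, 1582, 1553 and 1477 in shBMAL1, and 3656, 3736 and 4020 in shARNT. The shARNT libraries were all above the others and the shBMAL1 libraries all below the controls. Its level was 51.5 ± 1.02 CPM in shControl, 44.9 ± 1.43 in shBMAL1 and 96.0 ± 4.69 in shARNT. The log2 fold change was 0.90 in shARNT (SE 0.0498, adjusted p = 1.14e-12), a 1.86-fold rise, and -0.20 in shBMAL1 (SE 0.0515, adjusted p = 0.00271). The direct contrast gave 1.10 (SE 0.0502, adjusted p = 5.02e-14). In shARNT 2282 of the genes tested rose further. CPT1A has 19 exons on chromosome 11, from 68522088 to 68611878 on the minus strand.

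DGAT1 and DGAT2, unrelated enzymes that both join the last fatty acid to diacylglycerol, were close to their control level in shARNT and slightly higher in shBMAL1. DGAT1 had 1544, 1638 and 1640 counts in shControl, 1776, 1814 and 1861 in shBMAL1, and 1910, 1956 and 1925 in shARNT. DGAT2 had 355, 393 and 366 counts in shControl, 466, 476 and 448 in shBMAL1, and 438, 429 and 447 in shARNT. The raw counts of both were higher in the depleted libraries of either kind, but after scaling the shARNT libraries overlapped those of shControl.

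In shARNT the log2 fold change of DGAT1 was 0.00 (95% interval from -0.10 to 0.11, adjusted p = 0.947) and that of DGAT2 -0.02 (from -0.20 to 0.15, adjusted p = 0.818). With library size alone these were 0.24 (adjusted p = 1.83e-04) and 0.22 (adjusted p = 0.0251), close to the median of all genes under that scaling. In shBMAL1 DGAT2 rose by 0.27 (SE 0.0836, adjusted p = 0.00917). DGAT1 rose by 0.13 (SE 0.0507, adjusted p = 0.0367), a call that was lost without shControl replicate 1 (adjusted p = 0.151) or shBMAL1 replicate 3 (adjusted p = 0.115). The direct contrast was -0.12 for DGAT1 (adjusted p = 0.0306), which library size alone turned to 0.07, and -0.29 for DGAT2 (adjusted p = 0.00323), which then was -0.10 and not called. DGAT2 lies on chromosome 11 from 75470557 to 75512580, and DGAT1, on chromosome 8, shares 137 bases with HSF1 on the opposite strand.

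**Figure D2:**
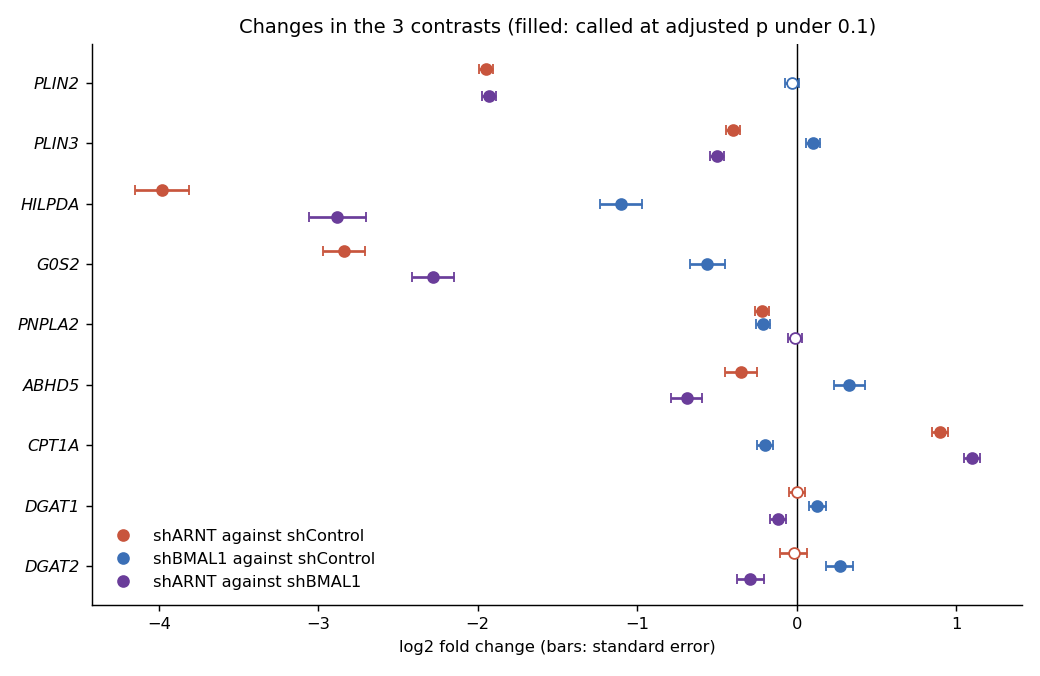
Log2 fold change of each gene for each depletion against shControl (shARNT red, shBMAL1 blue) and for shARNT against shBMAL1 (purple), with standard errors as bars and filled points for genes called. HILPDA and G0S2 are lower in both depletions and much lower in shARNT, PLIN2 is lower in shARNT and not called in shBMAL1, and ABHD5 and CPT1A change sign between the depletions; with library size alone PNPLA2 in shARNT turns from -0.22 to 0.02.

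In the distribution of all genes the members were spread widely. In shARNT, 469 genes had a lower fold change than G0S2 and 1110 a lower one than PLIN2, whereas PNPLA2, ABHD5, PLIN3, DGAT1 and DGAT2 lay in the central mass of genes. In shBMAL1, HILPDA and G0S2 were again the lowest of the 9, with 724 and 2277 genes below them.

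**Figure D3:**
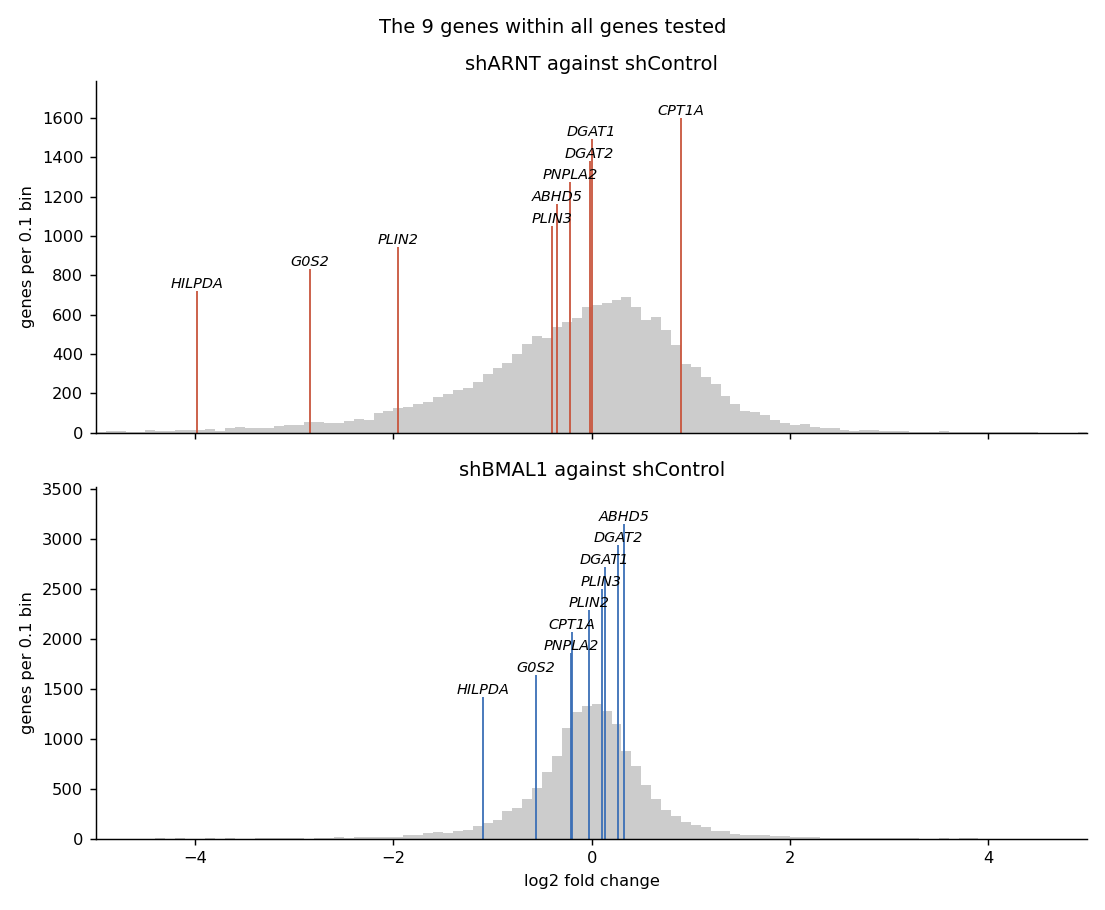
Histograms of the log2 fold change of the genes tested, in bins of 0.1 between -5 and 5, with the 9 genes as vertical lines of arbitrary height. The shARNT distribution is wider than that of shBMAL1, and HILPDA (-3.98), G0S2 (-2.84) and PLIN2 (-1.95) lie in its lower tail.

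Levels per transcript length set the genes beside each other. In shControl the order in RPKM was PLIN2 (671), PLIN3 (157), PNPLA2 (93.9), G0S2 (18.3), DGAT1 (13.3), CPT1A (9.83), HILPDA (8.22), DGAT2 (4.66) and ABHD5 (1.58), and no neighbours overlapped between libraries. In shARNT, CPT1A (18.3) came next after PNPLA2 (80.6), and G0S2 (2.55) and HILPDA (0.518) fell below DGAT2 (4.59), with ABHD5 (1.23) between them. The length is that of 1 transcript per gene, so ratios between genes depend on the annotation, and a summed numerator also weights its genes by these lengths.

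Within a library, the inhibitors HILPDA and G0S2 together stood at 0.282 ± 0.0111 of PNPLA2 in RPKM in shControl, 0.20 ± 0.0194 in shBMAL1 and 0.0382 ± 0.00692 in shARNT. The 9 libraries fell into 3 ranges without overlap, from 0.271 to 0.293, from 0.178 to 0.214 and from 0.0331 to 0.0461. The co-activator ABHD5 stood at 0.0168 ± 0.000609 of PNPLA2 in shControl, 0.0245 ± 0.00147 in shBMAL1 and 0.0153 ± 0.00105 in shARNT, and here shControl and shARNT overlapped. PLIN2 over PLIN3 was 4.29 ± 0.242, 3.92 ± 0.103 and 1.46 ± 0.0139 in the same order. CPT1A over PLIN2 was 0.0147 ± 0.000897, 0.0130 ± 0.000889 and 0.106 ± 0.000975, a 7.21-fold higher ratio in shARNT than in shControl. DGAT1 and DGAT2 together stood at 0.191 ± 0.00484, 0.248 ± 0.0129 and 0.223 ± 0.00534 of PNPLA2. Such ratios do not depend on the scaling of a library. They are given without a test (an exact permutation test of 3 libraries against 3 cannot give a two-sided p below 0.1), and they describe transcripts, not enzyme activity.

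**Figure D4:**
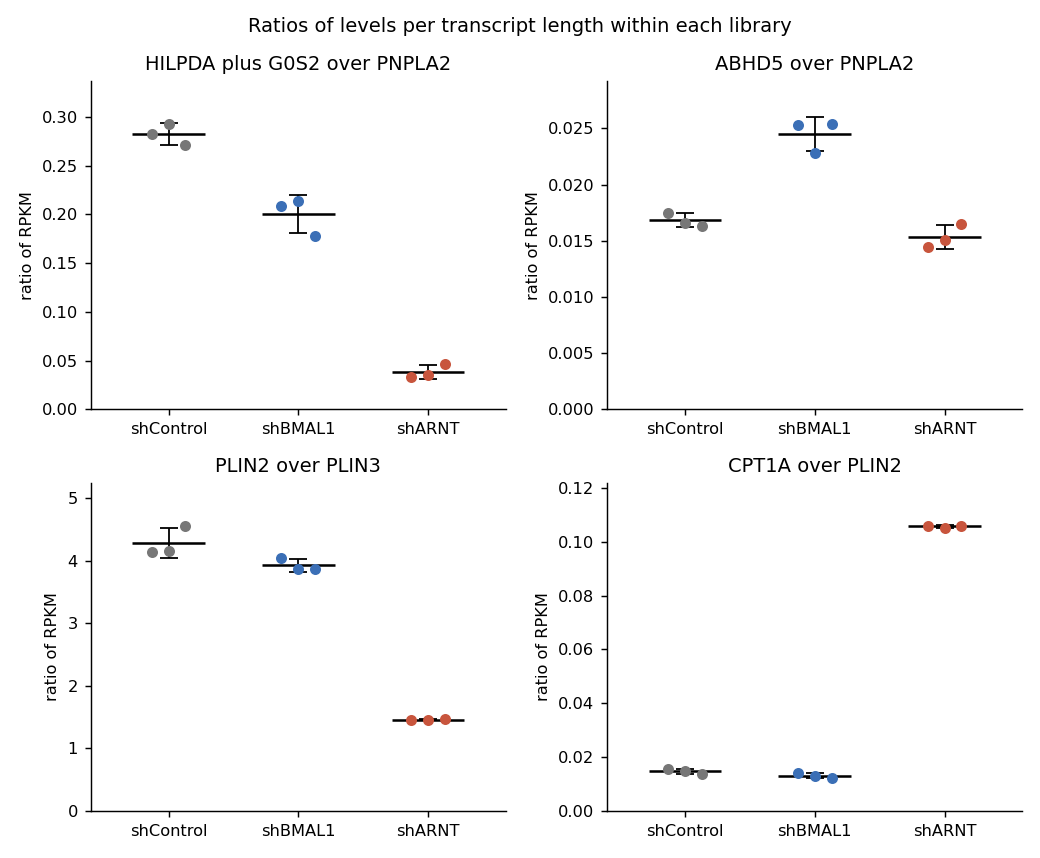
Ratios of RPKM within each library for HILPDA plus G0S2 over PNPLA2, ABHD5 over PNPLA2, PLIN2 over PLIN3 and CPT1A over PLIN2, on linear axes from 0, with mean and SD. The inhibitor ratio drops in steps from 0.282 to 0.20 and 0.0382, and CPT1A over PLIN2 is near 0.106 in all 3 shARNT libraries.

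Beyond the 9 genes, 83 further genes of lipid storage and use were listed in 7 groups, of which 66 were tested. In shARNT 38 fell and 20 rose (87.9% called, beside 81.8% of all genes). With library size alone the split was 30 lower and 25 higher. In shBMAL1 26 fell and 23 rose (74.2% called, beside 63.3%), and between the depletions 39 were lower and 21 higher in shARNT (90.9% called, beside 81.2%), or 34 and 23 with library size alone. Their median log2 fold change was -0.29, -0.04 and -0.40, beside -0.01, 0.00 and -0.01 over all genes tested. At a minimum fold of 1.5 the counts were 32, 15 and 29 of 66, beside 44.8%, 13.6% and 43.9% of all genes. The list counts that follow are to be read beside the shares of all genes called, 41.3% lower and 40.5% higher for shARNT and 31.5% and 31.9% for shBMAL1, and none of the lists was tested against them.

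Of the other coat proteins and the CIDE proteins, of which the latter fuse and enlarge droplets, 4 of 6 were tested. CIDEB (-1.56) and CIDEC (-1.51) fell in shARNT, while CIDEB alone fell in shBMAL1 (-1.13). CIDEC had 161, 189 and 179 counts in shControl, 203, 219 and 203 in shBMAL1, and 91, 52 and 79 in shARNT, and the direct contrast gave -1.70 (adjusted p = 1.02e-08). Of the droplet assembly genes, 5 of 7 were tested, of which shARNT lowered 2 and raised 1, and shBMAL1 lowered 1 and raised 2. FITM2, which helps bud droplets from the endoplasmic reticulum, fell in shARNT (-0.96) and in shBMAL1 (-1.18), HSD17B11 fell in shARNT (-0.96), and the droplet hydrolase LDAH, listed as C2orf43, rose in shARNT (0.96). LDAH was also called in shBMAL1 (0.16, adjusted p = 0.0407), but not without shControl replicate 2 (adjusted p = 0.165) or shBMAL1 replicate 2 (adjusted p = 0.176).

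Of the other lipases 6 of 8 were tested, of which shARNT lowered 4 and raised 1, and shBMAL1 lowered 2 and raised 2, beside the same shares of all genes. MGLL, which releases the last fatty acid from monoacylglycerol, had 8402, 8277 and 7940 counts in shControl, 9659, 9673 and 9910 in shBMAL1, and 3314, 3405 and 3231 in shARNT. It fell in shARNT (-1.57, adjusted p = 3.46e-18) and rose in shBMAL1 (0.20, adjusted p = 1.57e-04). The lysosomal lipase LIPA fell in both, by -1.31 and -0.86, and DDHD2 rose in shARNT (0.32). ABHD6 rose in shBMAL1 (0.63) and was lower in shARNT than in shBMAL1 (-1.42). The hormone-sensitive lipase LIPE, the main diacylglycerol lipase of fat tissue, had between 6 and 20 counts in each library.

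Among 13 tested genes of glycerolipid and sterol ester synthesis, 7 fell and 5 rose in shARNT and 6 fell and 6 rose in shBMAL1, where 81.8% and 63.3% of all genes were called. LPIN3, a phosphatidate phosphatase, fell in both (-1.73 and -0.81). In shARNT AGPAT2 fell (-1.20), while the sterol esterifying enzyme SOAT1 (0.71) and GPAM (0.50) rose. In shBMAL1 AGPAT4 (1.20) and GPAT3 (0.92), listed as AGPAT9, rose and AGPAT1 fell (-0.67). GPAT3 and LPIN1 were lower in shARNT than in shBMAL1 (-1.08 and -0.93), and GPAM and AGPAT5 were higher (0.79 and 0.68).

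Of 12 tested genes for fatty acid uptake and activation, 5 fell and 6 rose in shARNT and 5 fell and 3 rose in shBMAL1. The transporter SLC27A1 (FATP1) had 1785, 1692 and 1583 counts in shControl, 1802, 1857 and 1839 in shBMAL1, and 459, 484 and 491 in shARNT. Its log2 fold change was -2.08 in shARNT (adjusted p = 4.07e-17) and -2.15 in the direct contrast. SLC27A4 went the other way, with a rise in shARNT (0.55), a fall in shBMAL1 (-0.73) and a direct difference of 1.28 (adjusted p = 4.6e-15). ACSL4 rose (0.50) in shARNT, VLDLR rose (0.56) and SLC27A3 fell (-0.50) in shBMAL1, and in shARNT VLDLR was lower (-1.17) and ACSL3 higher (0.62) than in shBMAL1. ACSL1 was called in shBMAL1 (0.14, adjusted p = 0.0393) but not without shControl replicate 1 (adjusted p = 0.222) or shBMAL1 replicate 3 (adjusted p = 0.139). The fatty acid binding proteins FABP5 and FABP7 were named after their values were seen. FABP5, with a mean log2 CPM of 1.97, had 67, 51 and 60 counts in shControl, 195, 260 and 248 in shBMAL1, and 118, 122 and 111 in shARNT. It had the largest rise of this list in shBMAL1 (1.93, adjusted p = 3.05e-09) and also rose in shARNT (0.72, adjusted p = 0.000731). FABP7 had 91, 79 and 115 counts in shControl, 73, 67 and 56 in shBMAL1, and 0, 1 and 1 in shARNT. Its pooled shARNT level was 0.586% of shControl, with an exact 95% counting interval from 0.0707% to 2.14%.

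Of 20 tested genes of fatty acid oxidation, 14 fell and 4 rose in shARNT and 9 fell and 6 rose in shBMAL1, beside 41.3% of all genes lower and 40.5% higher in shARNT and 31.5% and 31.9% in shBMAL1. The falls include ACACB (-1.28 in shARNT and -0.55 in shBMAL1), a carboxylase that restrains oxidation and does not carry it out. ACAA2, the mitochondrial thiolase, had 574, 529 and 511 counts in shControl, 207, 266 and 241 in shBMAL1, and 151, 175 and 195 in shARNT, with log2 fold changes of -1.89 in shARNT and -1.22 in shBMAL1. The short-chain dehydrogenase ACADS fell in shARNT (-1.74) and was lower there than in shBMAL1 (-1.86). CPT2, which acts after CPT1A at the inner membrane, rose in shARNT (0.89, adjusted p = 1.94e-11) and less in shBMAL1 (0.24), with a direct difference of 0.64 (adjusted p = 2.7e-09). ETFA also rose in both (0.52 and 0.34), EHHADH fell in shBMAL1 (-0.89), and in shARNT ETFB was lower (-0.77) and ECHS1 higher (0.96) than in shBMAL1.

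All 6 PPAR regulators, the fatty acid sensing receptors and their partners, were called in every contrast, beside 81.8%, 63.3% and 81.2% of all genes, of which shARNT lowered 4 and raised 2, and shBMAL1 lowered 2 and raised 4. PPARD had 624, 651 and 650 counts in shControl, 1167, 1259 and 1151 in shBMAL1, and 297, 284 and 289 in shARNT, so the groups did not overlap. It fell in shARNT (-1.41, adjusted p = 4.8e-13) and rose in shBMAL1 (0.84, adjusted p = 1.14e-09). PPARG and PPARA had the same signs. PPARG changed by -0.63 in shARNT and 1.00 in shBMAL1, and PPARA by -0.71 and 0.66. In the direct contrast PPARD (-2.25) and PPARG (-1.63) were lower in shARNT, and RXRA, which fell in shBMAL1 (-0.73), was higher in shARNT (0.60).

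**Figure D5:**
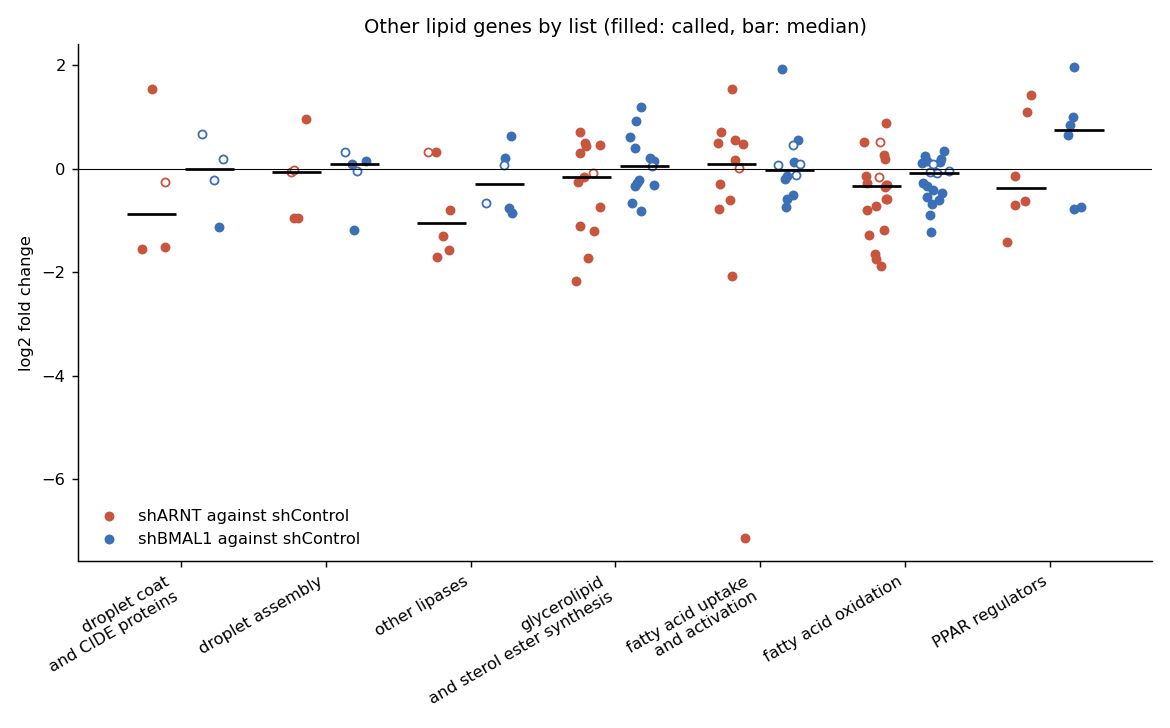
Log2 fold change of the 66 tested genes of the 7 further lists in shARNT (red) and shBMAL1 (blue) against shControl, 1 point per gene, filled where called, with the median of each list as a black bar. In shARNT the medians are -1.05 (lipases), -0.88 (coat and CIDE proteins), -0.38 (PPAR regulators), -0.33 (oxidation), -0.16 (synthesis), -0.06 (assembly) and 0.10 (uptake and activation). The PPAR regulators are at 0.75 in shBMAL1, and the lowest point is FABP7.

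The genes most like 4 of the members over the 9 libraries were found by Pearson correlation of log2 CPM among 11226 genes with a mean log2 CPM of at least 2. With 3 groups, such values describe the pattern of the group means, and many genes share it. PLIN2 was most like TGFBI (0.9993), RASA4 (0.9992) and OGFOD3 (0.9991), and 452 genes reached 0.99. RASA4 has near-identical copies, so its counts are uncertain. HILPDA was most like ST3GAL3 (0.9987), RAB8A (0.9979) and KCNK3 (0.9977), with 175 genes at 0.99 or more. CPT1A was most like UTP20 (0.9982), XPO7 (0.9975) and DHX8 (0.9973), with 177 such genes. PNPLA2 was most like DGCR6L (0.9888), which has a close copy, GXYLT2 (0.9831) and ZFPL1 (0.976), and no gene reached 0.99.

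Markers of other cells were read beside these results. Of 6 adipocyte markers, ADIPOQ and LEP had 0 counts in all 9 libraries, and the summed level of the list was 13.5 to 15.9 CPM in shControl, against 14.0 to 16.2 in shBMAL1 and 6.02 to 7.53 in shARNT. Within that list in shARNT, CIDEC was at 35.1% and CFD at 37.4% of control, while PLIN1 was at 293% and LIPE at 125%. The 5 macrophage markers summed to 1787 to 1905 CPM in shControl, against 1754 to 1865 in shBMAL1 and 136 to 149 in shARNT, nearly all of it CD68, a lysosomal protein, with CD163 at 0 and the leukocyte gene PTPRC at or below 0.365 CPM. The 4 endothelial markers summed to at most 0.412 CPM. The 4 hepatocyte markers, nearly all CPS1, summed to 31.5 to 33.4 CPM in shControl, against 7.35 to 9.48 in shBMAL1 and 5.04 to 5.25 in shARNT. The 8 renal and ccRCC markers summed to 7831 to 7883, 5892 to 6357 and 2116 to 2276 CPM, most of it vimentin (VIM). In shARNT, VIM was at 13.6% of control, KRT8 at 59.4%, NNMT at 65.8%, PAX2 at 68.1%, CA9 at 1.39% and NDUFA4L2 at 6.13%. In the same group PAX8 was at 279% and KRT18 at 99.5%. The ranges of the macrophage, adipocyte, hepatocyte and renal lists in shARNT lay below those in shControl, as did the PLIN2 libraries. Scarce markers did not all follow the sum of their list. CD14 had 0.191 CPM in shControl and 0.698 in shARNT, while CSF1R had 0.242 and 0.059. ALB had 0.352 CPM in shControl, 0.896 in shBMAL1 and 0.109 in shARNT. All 9 libraries were of the A498 line, so the sums are levels of marker genes in that line, not counts of other cells. A link of these levels to PLIN2 was not tested. In bulk RNA, a lower level in every cell and fewer cells with the transcript cannot be told apart.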

How the data were processed

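Stranded mRNA libraries of A498 cells (shControl, shBMAL1 and shARNT, 3 biological replicates each) were read from both ends on a BGISEQ-500 instrument. Per the study's methods, reads were aligned to GRCh37 with SeqMan NGen and counts exported with ArrayStar, whereas the submitters' processing notes name STAR, DESeq2 and hg38, and the difference was not settled here. The annotation, the treatment of multimapped reads, whether strand was used and whether reads or pairs were counted are not given in the sources used here. The values deposited by the authors were expected counts, unnormalized linear read totals of each gene, in a table of 27716 rows. A value of 0.05, which stood for no reads, was set to 0. In all, 28 rows with a date in place of a name were kept apart, and rows under 43 repeated names were summed, which left 27673 genes. Library totals were 35269857 to 36099083, and HILPDA in shARNT (22 to 32 counts) was the member with the fewest reads.

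Rounded counts were tested with edgeR 4.0.16 in R 4.3.3 (glmQLFit and glmQLFTest, TMM scaling, filterByExpr), with all 9 libraries in a single fit on group, and 15551 genes passed the filter. Genes were called at an adjusted p under 0.1 over all genes tested. Alternatives were DESeq2 1.42.0, scaling by library size alone or by relative log expression (RLE), no filter, only the 6 libraries compared, the replicate number as a block, each library left out, halved counts, an adjusted p under 0.05 and a minimum fold of 1.5 (glmTreat). The fit was tested on simulated data. The deviations of libraries with the same replicate number correlated at -0.041 to 0.075, and those with other numbers at -0.077 to 0.094. No shared part was seen, but with 3 libraries per group this cannot show whether the numbers pair the samples. Tables were made in Python 3.11.15. Gene positions and transcript lengths (the Ensembl canonical transcript) came from GENCODE lifted to GRCh37, and upstream sequences from RefSeq for GRCh38.p14.

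The 9 members, the other lists and the tests were chosen with earlier results of these data known. Named were the members, the depleted genes with EPAS1 and HIF1A, the other perilipins, the 3 genes most like each of 4 members, and in each list and contrast the 2 largest falls and 2 largest rises among called genes with a mean log2 CPM of at least 2 whose groups did not overlap. FABP5, FABP7, ACACB, LIPE, PPARG in shARNT and PPARA in shBMAL1 were named outside this rule after their values were seen. Another gene that met it is not reported here.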

Additional observations from a re-analysis of the deposited data

Results flagged for a closer look

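For 8 of the 9 genes the direct contrast of shARNT with shBMAL1 was called by edgeR, so the effect of one depletion differed from that of the other. Lower in shARNT were HILPDA (log2 difference -2.88, adjusted p = 9.05e-12), G0S2 (-2.28, adjusted p = 2.71e-12), PLIN2 (-1.93, adjusted p = 6e-19), ABHD5 (-0.69, adjusted p = 2.61e-06) and PLIN3 (-0.50, adjusted p = 1.63e-09). CPT1A was higher in shARNT (1.10, adjusted p = 5.02e-14). The differences of DGAT2 (-0.29, adjusted p = 0.00323) and DGAT1 (-0.12, adjusted p = 0.0306) were small, and with library size alone DGAT2 was not called and DGAT1 was at 0.07. Among all genes tested 81.2% were called in this contrast.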

How the results depend on the processing

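Of 486 recomputed fold changes of the 9 genes (each contrast under each alternative), 454 kept their sign and their side of the threshold, 22 lost the call, 1 gained it and 9 changed sign. Of 1530 for the other named genes these numbers were 1488, 33, 4 and 5. With a minimum fold of 1.5, 4, 1 and 4 of the 9 genes and 32, 15 and 29 of the other lipid genes were called (shARNT, shBMAL1 and direct contrast, in this order). DESeq2, RLE scaling, no filter, halved counts and the replicate block (7, 8 and 8 of the 9 genes called) changed no call among the 9. Without a library, 7, 6 to 8, and 8 of them were called.

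Library size alone moved the median of all genes to 0.23, 0.05 and 0.18 in the same order, and the share of higher calls from 49.6% to 60.5%, from 50.3% to 55.9% and from 49.4% to 58.6%. It turned the sign of PLIN2 in shBMAL1 (0.02), PNPLA2 in shARNT (0.02) and in the direct contrast (0.18), DGAT1 in the direct contrast (0.07) and DGAT2 in shARNT (0.22), and in the direct contrast of AUP1 (0.06), HIF1A (0.08) and PLIN4 (0.15). Relative to the median under that scaling these members were at -0.02, -0.21, 0.00, -0.11 and -0.01. Taking off the median comes close to TMM scaling again, so these values do not decide between the scalings. With 1 library left out, PLIN2 in shBMAL1 ranged from -0.05 to 0.02 (above 0 without shControl replicate 3), PNPLA2 in the direct contrast from -0.07 to 0.01 (above 0 without shBMAL1 replicate 2 or 3), DGAT2 in shARNT from -0.06 to 0.02 (above 0 without shControl replicate 2), and PLIN4 in the direct contrast from -0.29 to 0.18, with 0.16 without shBMAL1 replicate 3 and 0.18 without shARNT replicate 2. The cause was not tested. The 1530 values include the call of FITM2 between the depletions (0.22), lost without shBMAL1 replicate 1 (adjusted p = 0.119) or shARNT replicate 3 (adjusted p = 0.107). The small counts of HILPDA in shARNT (22 to 32) and of PLIN1 limit the precision of their fold changes, and transcripts do not show stored lipid.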
